A study of Homo sapiens with 6 samples.

Results

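TMEM176-positive rods are rod photoreceptors of human retinal organoids with at least 2 transcripts of the gene pair TMEM176A and TMEM176B. They were studied by single-cell RNA sequencing, in which each transcript copy is tagged with a unique molecular identifier (UMI), so that UMIs count RNA molecules per cell. Barcodes entered with 1000 UMIs or more over 500 genes or more and with no more than 20% mitochondrial UMIs. The members were chosen by measured UMI counts. A cell was called a rod with at least 3 UMIs of NRL, more NRL than PDE6H UMIs and at least 1 UMI summed over NR2E3, ROM1, RCVRN and PDC. Of 43757 cells kept, 10550 were rods by this rule. Of these, 5260 had 2 or more TMEM176 UMIs and are the members described here, 1924 had 1 and 3366 had 0. The rods with 0 are called TMEM176-zero rods below.

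The organoids came from the established human embryonic stem cell line WA09 with a tdTomato reporter of CRX, a transcription factor that marks photoreceptor precursors. They were grown for 113 to 126 days, broken into fragments and handled in 2 ways. Transplanted fragments were injected under the retina of normal dog eyes and collected 3 days later, while cultured fragments of the same organoid batches stayed in a dish for those 3 days. There were 3 independent experiments (Sets 1, 2 and 3), each with 1 transplanted and 1 cultured library, so that n = 3 in each group and the Set pairs the libraries. All cells carry the same reporter line, and a graft of human cells in a dog eye can be collected with host cells. The number of dogs or organoids behind each library was not given in the sources used here.

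Rods are the photoreceptors of dim-light vision. The transcription factor NRL directs a photoreceptor precursor to the rod fate and, with NR2E3, holds back cone genes. CRX switches on genes of both photoreceptor types. TMEM176A and TMEM176B are a pair of small membrane proteins with 4 membrane-spanning segments, related to the MS4A family. In immune cells they are known as cation channels of intracellular vesicles, above all in dendritic cells, and their role in photoreceptors is less well understood.

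The 6 libraries held between 6850189 and 108222149 UMIs. Both libraries of Set 1 had been processed with another software release than those of Sets 2 and 3, so release and Set cannot be told apart. Pairs of libraries shared between 0 and 54 cell barcodes among kept cells, at most 1.009% of the smaller library, and 0 or 1 member. Transplanted library 2 had 694 kept cells and cultured library 3 only 18 members, so values from these libraries rest on few cells. In transplanted library 3, 73 members (7.67%) lay below the 1st percentile of cultured cells of the Set in their share of UMIs from clone-named transcripts, which served as a rough sign of host reads. Among the 201 TMEM176-zero rods of that library, 23 (11.4%) did. The other libraries had 0 to 6 such members.

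TMEM176A (ENSG00000002933) lies on the plus strand at chr7:150800403-150805120 and TMEM176B (ENSG00000106565) on the minus strand at chr7:150791285-150801360 (GRCh38, GENCODE v29). The genes are transcribed in opposite directions with annotated spans that overlap at their 5′ ends. An annotated start of TMEM176B lies 405 bases from that of TMEM176A. Another, at chr7:150801360, lies 591 bases away. The 250 bases before it share 0 bases with the TMEM176A window and are not shown. Shown are the 250 bases before the TMEM176A start and before the nearer TMEM176B start (RefSeq, GRCh38.p14). They are on the strand of the gene, 5′ to 3′, and were chosen because the pair was detected together in most members. Whether the pair shares a promoter was not tested. Capitals mark the 96 bases, chr7:150800519-150800614, that both windows hold on opposite strands. The TMEM176A window is chr7:150800519-150800768 on the plus strand, the TMEM176B window chr7:150800365-150800614 on the minus strand.
TMEM176A: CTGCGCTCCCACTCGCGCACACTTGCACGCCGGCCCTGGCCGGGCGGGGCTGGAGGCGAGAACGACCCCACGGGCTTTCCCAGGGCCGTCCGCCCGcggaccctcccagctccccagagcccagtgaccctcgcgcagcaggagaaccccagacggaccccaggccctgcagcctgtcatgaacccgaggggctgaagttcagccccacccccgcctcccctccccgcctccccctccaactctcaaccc
TMEM176B: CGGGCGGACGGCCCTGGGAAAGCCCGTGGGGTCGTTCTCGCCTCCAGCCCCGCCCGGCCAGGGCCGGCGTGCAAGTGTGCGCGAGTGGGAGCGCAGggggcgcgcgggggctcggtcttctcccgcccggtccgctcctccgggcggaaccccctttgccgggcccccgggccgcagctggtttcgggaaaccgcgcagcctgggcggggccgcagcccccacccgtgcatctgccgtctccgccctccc
The windows were 73.2% and 78.4% G or C. Neither held TAATCC, a core motif of CRX, which was in 5.62% of 35097 promoter windows of this length, or TGCTGA, part of the NRL motif, which was in 14.0% of them. Both strands were searched.

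Both genes contributed to the membership in every library. Both were detected in 83.2, 81.6 and 80.5% of the members of transplanted libraries 1, 2 and 3, and in 66.9, 76.5 and 50% of those of cultured libraries 1, 2 and 3. TMEM176B UMIs outnumbered TMEM176A UMIs by ratios of 1.26, 1.41 and 1.62 in transplanted and 1.302, 1.49 and 1.59 in cultured members. The median member had 5, 6 and 5 TMEM176 UMIs in transplanted libraries 1, 2 and 3 and 3, 4 and 3 in cultured libraries 1, 2 and 3. Members with 8 or more TMEM176 UMIs were 32.7, 41.5 and 33.6% of transplanted and 2.40, 21.0 and 5.56% of cultured members. These levels used the rule and are a description. The 6 MS4A relatives listed had too few UMIs in rods to be tested.

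The label was checked against rod and cone genes. NRL stood at 1288, 1780.3 and 1997 CPM (UMIs of the gene scaled to a library sum of 1e6) in transplanted members and at 1519, 1717 and 1129 CPM in cultured members, summed per library. In TMEM176-zero rods it stood at 1653, 2320.3 and 2149.7 CPM in transplanted and 1679, 2687 and 1325 CPM in cultured libraries, higher than in members in 6 of 6 libraries. The cone gene PDE6H, a subunit of the cone phosphodiesterase, stood at 402, 644 and 609.9 CPM in transplanted members, against 56.7, 14.3 and 109.8 CPM in transplanted TMEM176-zero rods. In cultured members it stood at 365, 412 and 296 CPM, against 179, 165 and 116 CPM in cultured TMEM176-zero rods. PDE6H was thus higher in members in 6 of 6 libraries. The rule used both genes, and these rods were not matched in depth, so the values are a description and check nothing. NRL went the other way in rods reduced to a common depth by random draws of their UMIs. Rods left with 0 TMEM176 UMIs had 1336, 1965 and 2387 CPM of NRL in transplanted libraries 1, 2 and 3. Those left with 3 or more had 2295, 2819 and 3367 CPM. In cultured libraries 1 and 2 these values were 1646 and 2951 CPM with 0 and 2629 and 4205 CPM with 3 or more. Cultured library 3 had too few such rods, and the steps were not tested. Over 8 rod markers that the rule did not use, among them AIPL1, matched members summed to 406 to 1472 CPM and matched TMEM176-zero rods to 228 to 979 CPM, higher in members in 6 of 6 libraries. AIPL1 made up most of the member sums, from 672 of 758 CPM in transplanted library 1 to 424 of 764 CPM in cultured library 3. The sums thus mostly follow that gene. SAG, the rod arrestin, was taken over all rods, not matched in depth. It was at 0.701, 3.45 and 4.85 CPM in transplanted members and 0.522, 1.61 and 2.04 CPM in cultured members. In TMEM176-zero rods it was at 3.70, 14.3 and 5.28 CPM in transplanted and 0.851, 4.13 and 2.40 CPM in cultured libraries. It was higher there in 6 of 6, though the 14.3 CPM were 1 UMI and the 3.70 CPM 3 UMIs. SAG was scarce in all of these rods. Between TMEM176-positive and TMEM176-zero rods lay the rods with a single TMEM176 UMI. AIPL1, which was given as a marker of these rods, had 336, 665 and 725 CPM with 1 UMI and 402, 815 and 823 CPM with exactly 2 in transplanted libraries 1, 2 and 3. In cultured libraries 1, 2 and 3 it had 208, 425 and 297 CPM with 1 UMI and 236, 445 and 211 CPM with exactly 2. Rods with exactly 2 UMIs were above those with 1 in 5 of 6 libraries and below in cultured library 3, which had 8 rods with exactly 2.

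A larger share of rods was TMEM176-positive in the transplanted than in the cultured library of each Set. The members made up 72.7, 86.5 and 70.5% of rods in transplanted libraries 1, 2 and 3, against 32.0, 50.6 and 5.01% in cultured libraries 1, 2 and 3. Exact 95% binomial intervals, which cover counting error only, ran from 70.6 to 74.8%, 80.4 to 91.2% and 68.0 to 72.9% in the transplanted libraries, and from 30.5 to 33.6%, 48.9 to 52.3% and 2.998 to 7.81% in the cultured ones. Every transplanted library lay above every cultured one. The means were 76.6% ± 8.64 in transplanted and 29.2% ± 22.9 in cultured libraries (SD, n = 3 each), a difference of 47.4 percentage points that ranged from 35.9 to 65.5 points over the Sets. The exact permutation test within Sets gave p = 0.25 (two-sided), the smallest p that 3 pairs allow, so the test cannot pass 0.05 in this design. Unpaired, the exact permutation p was 0.10, also the smallest possible. Without Set 3 the difference was 38.3 points.

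**Figure D1:**
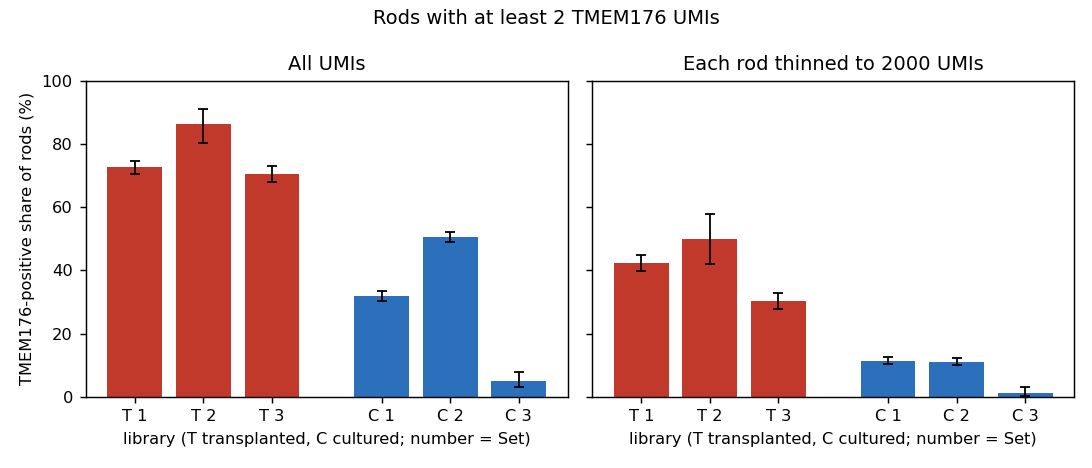
Share of rods with at least 2 TMEM176 UMIs (y axis, %) in each library (x axis: T transplanted, C cultured, number of the Set), with all UMIs on the left and with each rod thinned to 2000 UMIs on the right. Bars are single libraries and error bars exact 95% binomial intervals. The 3 transplanted libraries stand at 70.5 to 86.5% and the cultured ones at 5.01 to 50.6% with all UMIs.

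A cell with more UMIs passes a minimum of 2 more easily, so the share was also taken at equal depth. Each rod of at least 2000 UMIs was thinned to 2000 UMIs by random draws of its own UMIs. The share was then 42.3, 50 and 30.4% in transplanted libraries 1, 2 and 3, against 11.4, 11.1 and 1.04% in cultured libraries 1, 2 and 3. The difference was 33.03 points, from 29.4 to 38.9 over the Sets (exact permutation p = 0.25). This left out 299, 10 and 55 shallower rods of the transplanted libraries and 638, 125 and 71 of the cultured ones. Among rods of at least 2000 and under 4000 UMIs, 62.8, 81.5 and 50.8% were members in transplanted libraries 1, 2 and 3, against 25.4, 23.9 and 0% in cultured libraries 1, 2 and 3. Among rods of 16000 UMIs or more the shares were 93.5, 97.2 and 96.3% in transplanted libraries, against 80.4, 83.2 and 25.0% in cultured ones. The share rose with depth in all 6 libraries between these bins, and at each of these depths every transplanted library stood above every cultured one.

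**Figure D2:**
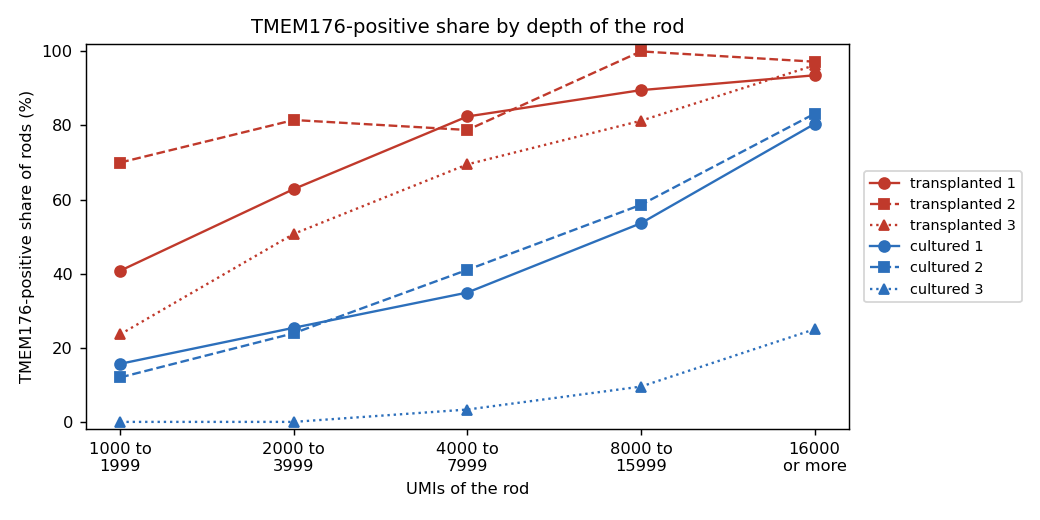
TMEM176-positive share of rods (y axis, %) by the number of UMIs of the rod (x axis, 5 bins), one line per library. Red lines are transplanted and blue lines cultured libraries. All lines climb from the shallowest to the deepest bin, and the red lines stay above the blue ones in every bin.

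Shares in other cells stand beside those of rods, with all UMIs unless stated, although the depth of the cell types differed. Cones carried 2 or more TMEM176 UMIs in 82.4, 70.6 and 73.3% of cells in transplanted libraries 1, 2 and 3, against 23.9, 33.2 and 4.69% in cultured libraries 1, 2 and 3. The median cone had 10952 and 12949 UMIs in transplanted libraries 2 and 3, against 5960 and 5741.5 UMIs for the median rod. Thinned to equal depth as the rods were, cones had 47.3, 16.7 and 22.8% in transplanted libraries 1, 2 and 3. In cultured libraries 1, 2 and 3 they had 7.96, 3.32 and 0.8%. Thinned cones were above thinned rods in transplanted library 1 and below them in all other libraries. In both forms the cones differed between treatments in the same direction as the rods. Amacrine cells, inhibitory interneurons outside the photoreceptor lineage, had 2 or more in 14.3, 0 and 1.08% of cells in transplanted libraries (medians of 1901, 6900.5 and 7163 UMIs) and 2.94, 0.848 and 0% in cultured libraries (2228, 4365 and 2411 UMIs). Horizontal cells lay between 0 and 7.41%. The 28 amacrine cells of transplanted library 2 and the 21 of transplanted library 1 give wide intervals, up to 12.3% and 36.3%. At a median of 4206 UMIs, 5.01% of rods in cultured library 3 had 2 or more (interval 2.998 to 7.81%). Of its 181 amacrine cells, at a median of 2411 UMIs, 0% did (interval up to 2.02%). These depths differ. In that library 0% of the 71 rods of at least 1000 and under 2000 UMIs were members, and 0% of the 99 rods of at least 2000 and under 4000. Müller glia are the support cells of the retina. Of these, 51.6% in transplanted library 1 and 52.3 and 57.1% in cultured libraries 1 and 2 had 2 or more. Their medians were 13710, 8341.5 and 15925 UMIs. Thinned to equal depth, their shares were 20.6, 20.9 and 23.8%, against 42.3, 11.4 and 11.1% of rods in the same libraries. These shares rest on 63, 43 and 21 thinned glia. The remaining libraries had at most 12 such glia.

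At matched depth, TMEM176-positive rods had more RNA of many photoreceptor genes and less RNA of cell cycle genes than TMEM176-zero rods. Without depth matching, the medians of the rod phototransduction and cell cycle lists had the opposite sign and 455 genes passed, 296 higher and 159 lower in members. In rods thinned to 2000 UMIs without matching, 37 were higher and 5 lower. Those rods kept the TMEM176 status of their full counts. Members were thus still the deeper rods before thinning, at a median of 6577 against 3658 UMIs in transplanted library 1. Each member was matched to a TMEM176-zero rod of its own library within 0.05 log10 UMIs, which gave 223, 14 and 193 pairs in transplanted libraries 1, 2 and 3 and 844, 781 and 13 in cultured libraries 1, 2 and 3, or 2068 of 5260 members. The counts of the paired rods were summed per library and tested with edgeR's quasi-likelihood test with the library as a block. Of 12748 genes tested, 486 (3.81%) were higher and 841 (6.6%) lower in members at an adjusted p under 0.05, together 10.4%. The median log2 difference of all genes was -0.01. The count was 555 without cultured library 1, 648 without cultured library 2 and 0 without the library block (with 114 below 0.05 before adjustment), and DESeq2 gave 423. Matched members are the shallower ones, with medians of 2253, 4638 and 3908 UMIs in transplanted and 4269.5, 5713 and 10082 UMIs in cultured libraries. In transplanted library 2 a single UMI was worth 14.7 CPM in these sums. The genes of the rule stayed out of all counts.

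The largest rises were taken among passing genes with at least 30 CPM in the higher group and members higher in 6 of 6 libraries. They included a transcription factor, a cyclase activator and a chaperone of phototransduction. IRX6 (ENSG00000159387), an Iroquois homeobox transcription factor, had 158, 397 and 255 CPM in the members of transplanted libraries 1, 2 and 3 and 73.3, 164 and 157 CPM in those of cultured libraries 1, 2 and 3, against 54.3, 58.2 and 105 CPM and 27.4, 83.7 and 96.5 CPM in their matched TMEM176-zero rods. It was higher in members of 6 of 6 libraries, although the groups overlapped between libraries (log2 difference 1.20 ± 0.10, adjusted p = 1.12e-16, edgeR). GUCA1B (ENSG00000112599), the calcium sensor GCAP2 that activates retinal guanylate cyclase, had 109, 29.4 and 133 CPM in the members of transplanted libraries 1, 2 and 3 and 32.8, 61.4 and 31.4 CPM in those of cultured libraries 1, 2 and 3, against 19.7, 14.5 and 63.1 CPM and 13.9, 32.3 and 15.2 CPM in their matched TMEM176-zero rods. It too was higher in 6 of 6 libraries (1.17 ± 0.13, adjusted p = 3.84e-11, edgeR), with 2 UMIs against 1 in transplanted library 2. AIPL1 (ENSG00000129221), the chaperone of the rod phosphodiesterase, had 672, 942 and 1040.4 CPM in the members of transplanted libraries 1, 2 and 3 and 298, 568 and 424 CPM in those of cultured libraries 1, 2 and 3, against 245, 639.7 and 704 CPM and 165, 393 and 234 CPM in their matched TMEM176-zero rods. Its log2 difference was 0.78 ± 0.09, adjusted p = 3.61e-10 (edgeR), with members higher in 6 of 6 libraries, but AIPL1 came with the definition of these rods as one of their markers. GNB3, a beta subunit of cone transducin, averaged 598 ± 210.5 CPM in members and 366 ± 145 CPM in TMEM176-zero rods (SD, n = 6 libraries each; 0.73 ± 0.08, adjusted p = 5.34e-11, edgeR). The others of the 12 largest rises were C7orf33 (0.98), B3GALT5 (0.98), PCAT4 (0.96), BSPRY (0.85), SPINK4 (0.85), CACNA1F (0.81), SLC29A4 (0.72) and TNFRSF19 (0.72), as log2 differences that passed at an adjusted p of 0.00415 or less. Among them B3GALT5 is a glycosyltransferase, PCAT4 a long noncoding RNA, SPINK4 a protease inhibitor, CACNA1F the calcium channel of the photoreceptor synapse, SLC29A4 a monoamine transporter and TNFRSF19 a receptor of the tumour necrosis factor family. SPINK4 had 1 UMI in both groups of transplanted library 2 and 16 in both groups of cultured library 3. CACNA1F had 1 in both groups of transplanted library 2. They count as higher in members there only because the member sums held fewer UMIs in total. None of these 12 changed direction in the alternatives run. Without depth matching 7 of them passed, and BSPRY, SPINK4, CACNA1F, AIPL1 and TNFRSF19 did not.

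**Figure D3:**
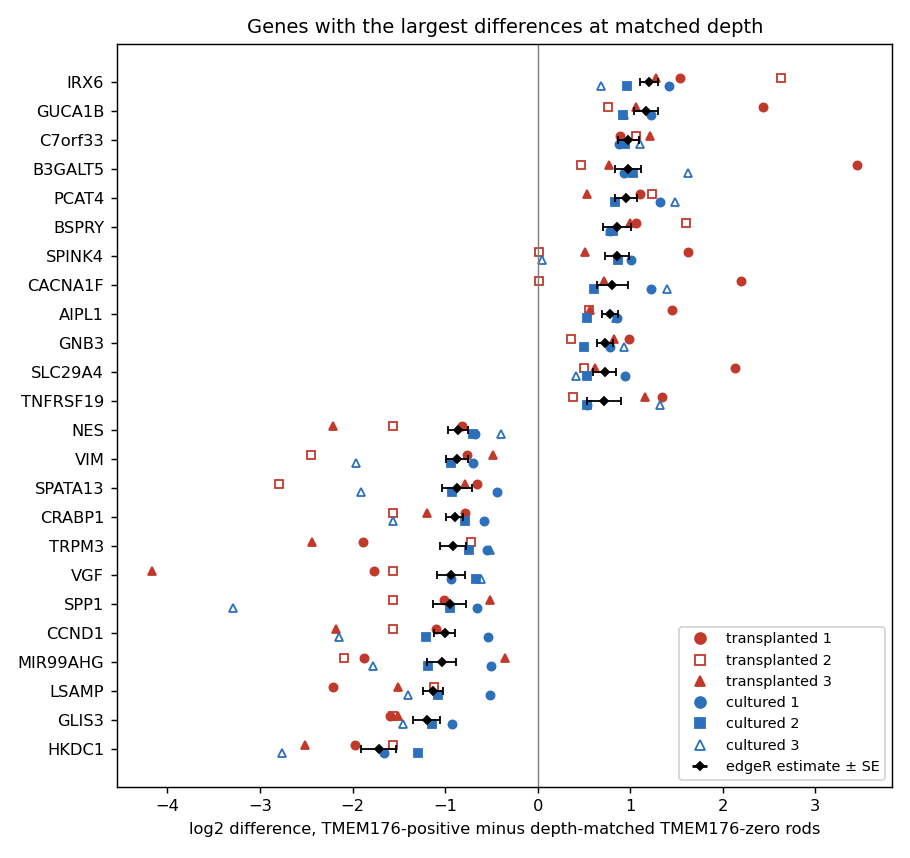
Log2 difference between TMEM176-positive and depth-matched TMEM176-zero rods (x axis) for the 12 largest rises and 12 largest falls (y axis). They were taken among passing genes with at least 30 CPM in the higher group and one direction in every library. Coloured points are single libraries, open ones those with 14 or 13 pairs, and black diamonds the edgeR estimate ± SE. IRX6 stands at 1.20 and HKDC1 at -1.72.

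Many genes of photoreceptor function were higher in members. Of 13 tested genes of rod phototransduction, 8 rose and 0 fell, with a median log2 difference of 0.46. They were GUCA1B (1.17), AIPL1 (0.78), CNGB1 (0.46), GNAT1 (0.48), CNGA1 (0.65), PDE6G (0.52), PDE6B (0.35) and GNGT1 (0.38), which encode a cyclase activator, a chaperone and subunits of the cyclic GMP channel, of transducin and of the phosphodiesterase. CNGB1 and GNAT1 turned to -0.26 and -0.19 without depth matching, where the median of the list was -0.17 and 1 gene passed. Of 6 tested genes of cone phototransduction, 4 rose and 0 fell: GNB3 (0.73), GNGT2 (0.51), CNGA3 (0.67) and GNAT2 (0.78), at a median of 0.59. CNGA3 and GNAT2 were at or below 16.3 CPM on average. Among 15 tested photoreceptor transcription factors and silencers, 8 rose and 1 fell, at a median of 0.38. The rises were RAX2 (0.65), NEUROD1 (0.51), PRDM1 (0.54), RXRG (0.58), SAMD11 (0.46), OTX2 (0.43), CRX (0.42) and THRB (0.38), and the fall was RORB (-0.41), the nuclear receptor that acts upstream of NRL in mouse. CRX averaged 330.2 ± 188 CPM in members and 253 ± 150.3 CPM in TMEM176-zero rods, and was higher in 6 of 6 libraries. Of 19 tested genes of the outer segment, cilium and matrix, 11 rose, among them KCNV2 (0.68), RP1 (0.60), IMPG2 (0.56) and CDHR1 (0.55), and CRB1 fell (-0.29). The list's median was 0.41. KCNV2 is a potassium channel subunit, RP1 a protein of the outer segment axoneme and IMPG2 a proteoglycan of the matrix between photoreceptors. Of 21 tested genes of the ribbon synapse, 11 rose and 0 fell at a median of 0.34, among them SNAP25 (0.60), CPLX3 (0.87), UNC119 (0.66) and CACNA1F (0.81). Without depth matching 3 outer segment, 3 transcription factor, 3 ribbon synapse and 3 cone genes passed as higher, and the medians stayed above 0.

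Cell cycle genes were lower in members at matched depth, though not without matching. All 15 tested cell cycle genes had a log2 difference below 0 and 12 of them fell, among them CENPF (-0.92), CCND1 (-1.005), TOP2A (-0.83) and NUSAP1 (-0.74), with a median of -0.68. CENPF and TOP2A were lower in 4 of 6 libraries and NUSAP1 in 3, each with 0 UMIs in both groups of transplanted library 2. CCND1, or cyclin D1, had 112, 0 and 9.48 CPM in the members of transplanted libraries 1, 2 and 3 and 155, 41.2 and 20.9 CPM in those of cultured libraries 1, 2 and 3, against 241, 14.5 and 44.9 CPM and 225, 95.5 and 101.6 CPM in their matched TMEM176-zero rods. It was lower in members of 6 of 6 libraries (-1.005 ± 0.11, adjusted p = 1.96e-08, edgeR), in transplanted library 2 with 0 UMIs against 1. Among passing genes of at least 30 CPM that were lower in every library, HKDC1, of the hexokinase family, fell most (-1.72 ± 0.19, adjusted p = 2.85e-11, edgeR). It averaged 9.74 ± 4.94 CPM in members, against 47.1 ± 31.2 CPM in TMEM176-zero rods (SD, n = 6 libraries each). The other large falls were GLIS3 (-1.20), LSAMP (-1.13), MIR99AHG (-1.03), SPP1 (-0.95), VGF (-0.94), TRPM3 (-0.92), CRABP1 (-0.90), SPATA13 (-0.87), VIM (-0.87) and NES (-0.86). GLIS3 is a zinc finger transcription factor, LSAMP a neuronal adhesion protein, SPP1 osteopontin, VGF a neuropeptide precursor and CRABP1 a retinoic acid binding protein. VIM and NES encode vimentin and nestin, the intermediate filaments of glia and progenitors. Without depth matching, 9 of these 12 genes had a difference above 0 that did not pass, CCND1, VIM, NES, SPP1 and CRABP1 included, and HKDC1, LSAMP and VGF stayed below 0 without passing. The median of the cell cycle list was 0.19 without matching and -0.17 when rods were thinned to 2000 UMIs without matching, with 0 genes passing in either.

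Smaller groups fell in part. Of 15 young neuron genes, 5 fell, among them GAP43 (-0.68), SOX11 (-0.34) and ELAVL3 (-0.65), and MAP1B (0.49), a microtubule protein, rose. Of 21 immediate early genes 7 fell and 1 rose, at a median of -0.39, with IER5 (-0.62), ATF3 (-0.73) and NR4A1 (-0.68) lower and DUSP2 (0.59) higher. Of 8 interferon-induced genes 4 fell (IFITM3 (-0.84), IFITM2 (-0.93), ISG15 (-0.75) and IFITM1 (-0.68)) and IFI27 (0.72) rose. Of 8 complement genes 4 fell (CLU (-0.93), CD59 (-0.70), CFI (-0.70) and SERPING1 (-0.55)), as did 4 of 10 genes of class I antigen presentation (HLA-E (-0.74), PSMB8 (-0.65), PSMB9 (-1.005) and TAPBP (-0.53)) and 3 of 14 genes of p53 and death. CEBPD (0.46), an acute-phase transcription factor, was the 1 gene of 10 that passed in the STAT3 list. In these lists IER5, HLA-E, PSMB8, TAPBP, ELAVL3, IFITM3, ISG15 and IFITM1 were lower in 4 of 6 libraries and CFI in 3. None of 13 mitochondrially encoded genes passed (edgeR; median 0.05). Without depth matching the medians of the interferon, complement, antigen presentation and immediate early lists lay above 0.

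Signals of other cell types moved with these differences. Summed over 9 markers, Müller glia RNA was lower in matched members of 6 of 6 libraries, at 368 to 3032 CPM in members and 538 to 4793 CPM in TMEM176-zero rods. Over 8 markers, dividing progenitor RNA was lower in members of 4 of 6 libraries (88.3 to 929 CPM in members, 72.7 to 1352 CPM in TMEM176-zero rods). None of the Müller or dividing markers was at 0 in transplanted library 1 or cultured libraries 1 and 2. The summed cone markers were higher in members of 6 of 6 libraries (528 to 1012 CPM in members, 315 to 799.6 CPM in TMEM176-zero rods). GNB3 made up most of the member sums, from 862 of 1012 CPM in transplanted library 1 to 303 of 528 CPM in cultured library 3. Ganglion cell markers were lower in members of 6 of 6 libraries (14.7 to 88.1 CPM in members, 29.1 to 203 CPM in TMEM176-zero rods). Amacrine cell markers were lower in 5 of 6 (76.9 to 213 CPM in members, 72.7 to 319.5 CPM in TMEM176-zero rods), as were horizontal cell markers (118 to 308 CPM in members, 43.6 to 430.04 CPM in TMEM176-zero rods). Markers of 3 other types were higher in members of 5 of 6 libraries. Those of bipolar cells summed to 184 to 709 CPM in members and 150.5 to 655 CPM in TMEM176-zero rods. Those of the retinal pigment epithelium summed to 178 to 965 CPM in members and 163 to 1185 CPM in TMEM176-zero rods, and those of the choroid plexus to 518 to 883 CPM in members and 316 to 1239 CPM in TMEM176-zero rods. The choroid plexus list includes TTR, shared with the pigment epithelium list, and the photoreceptor factor OTX2, which rose in members. In transplanted library 2, 5 of its 6 genes were at 0 in matched members. Its sum thus does not stand for that cell type alone. By doublet score, 6.28 and 4.15% of matched members and 6.73 and 6.22% of matched TMEM176-zero rods in transplanted libraries 1 and 3 were likely doublets. In cultured libraries 1 and 2 these were 18.1 and 11.8% of members and 28.2 and 19.97% of TMEM176-zero rods. With those cells removed, 1192 genes passed, the 12 largest rises all passed, and 10 of the 12 largest falls did. SPP1 (-0.93) and VGF (-1.07) did not. The part that RNA of other cells had in the differences was not tested. Summed over 10 genes, myeloid markers came to at most 9.83 CPM in matched members.

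Several of these levels followed the TMEM176 count in steps. Among rods thinned to 2000 UMIs, AIPL1 stood at 401, 513, 592 and 712 CPM in rods of transplanted library 1 with 0, 1, 2 and 3 or more TMEM176 UMIs. In cultured library 1 the same steps gave 201, 243, 363 and 401 CPM. IRX6 gave 80.9, 97.3, 146 and 183 CPM in transplanted library 1 and 41.0, 76.3, 101 and 134 CPM in cultured library 1. LSAMP gave 118.8, 88.4, 54.6 and 45.5 CPM in transplanted library 3 and 274, 156, 143 and 51.3 CPM in cultured library 2. AIPL1 and IRX6 climbed at every step in the 5 libraries with enough rods. GUCA1B dipped between 1 and 2 UMIs in transplanted library 2 and in cultured libraries 1 and 2. These rods include those that entered the matched comparison, so the steps are a description and were not tested. Cultured library 3 had 3 thinned rods with 2 or more TMEM176 UMIs and is left out.

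**Figure D4:**
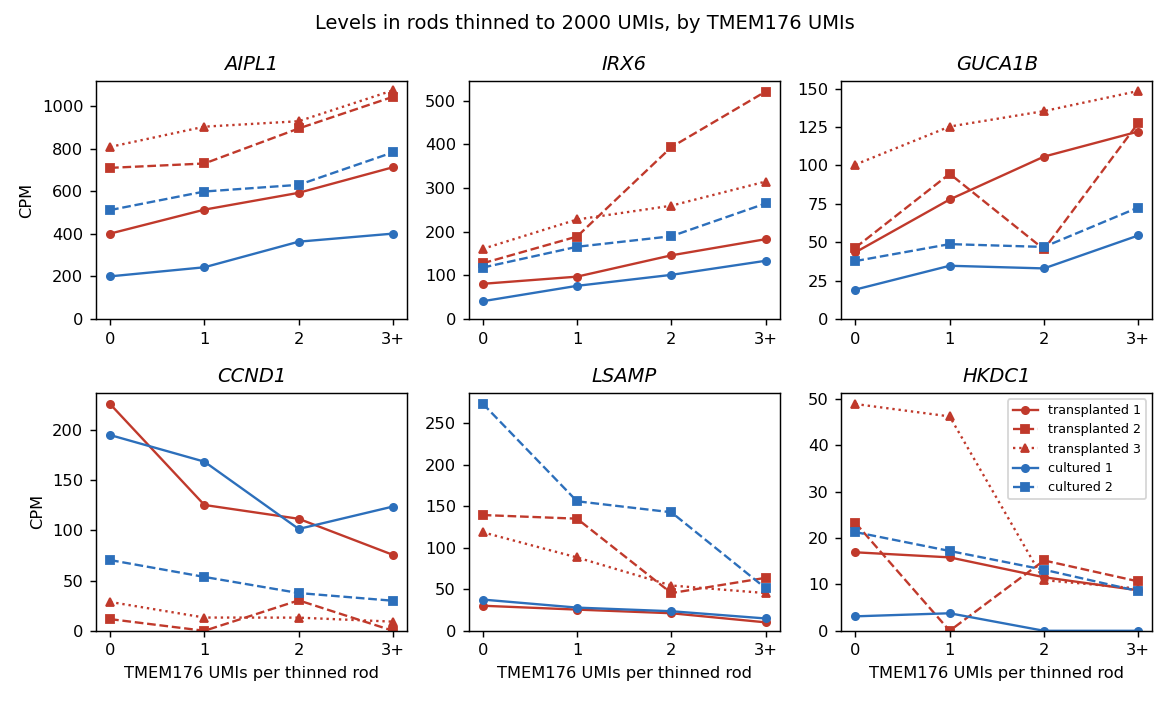
Level (y axis, CPM, summed over rods) of 6 genes in rods thinned to 2000 UMIs, by the number of TMEM176 UMIs left in the rod (x axis), one line per library. AIPL1, IRX6 and GUCA1B lie higher and CCND1, LSAMP and HKDC1 lower at 3 or more UMIs than at 0 in each library shown. A rod class with few UMIs, as CCND1 in transplanted library 2 with 0 to 2 UMIs, scatters.

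Transplanted members differed from cultured members of the same Set in genes of the acute-phase response, stress, cell division and phototransduction. All members were summed per library, and edgeR's quasi-likelihood test had the Set as a block. Of 18181 genes tested, 489 (2.69%) were higher and 524 (2.88%) lower in transplanted members, together 5.57%, and 3321 had an unadjusted p under 0.05. The count was 660, 367 and 216 without Set 1, 2 and 3, and 454 without rods over 20000 UMIs. It was 0 without the Set block (506 at an unadjusted p under 0.05), and DESeq2 with the block gave 477. Members over 20000 UMIs held 35.2, 81.8 and 68.6% of member UMIs in transplanted libraries 1, 2 and 3 and 13.3, 78.2 and 76.5% in cultured libraries 1, 2 and 3. The median member had 5961, 6363 and 7666.5 UMIs in transplanted and 5364, 13572 and 14917.5 UMIs in cultured libraries. The sum of cultured library 3 came from 18 cells and 490598 UMIs.

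SERPINA3 (ENSG00000196136), a secreted protease inhibitor of the acute-phase response, rose most among the genes named by size. It had 100.4, 55.5 and 41.9 CPM in the transplanted libraries, against 6.78, 5.91 and 0 CPM in the cultured ones. The groups did not overlap (log2 change 3.72 ± 0.27, adjusted p = 9.84e-13, edgeR), and a count of 0 in cultured library 3 allows up to 6.11 CPM. CEBPD, a transcription factor of the same response, had 156, 272 and 156 CPM in the transplanted libraries, against 80.0, 43.5 and 52.997 CPM in the cultured ones (1.90 ± 0.31, adjusted p = 1.48e-04, edgeR), again without overlap. SOCS3, the feedback inhibitor of STAT3 signalling, rose by 1.92 and CEBPB by 1.21 on the log2 scale, and these 4 were the genes of 13 in the STAT3 list that passed, with 0 lower. HSPA1A, an inducible heat shock protein, had 44.3, 29.8 and 24.0 CPM in the transplanted libraries, against 11.1, 5.10 and 0 CPM in the cultured ones (2.48 ± 0.27, adjusted p = 7.70e-08, edgeR). Of 13 heat shock genes, HSPA1A and DNAJB1 (1.02) rose. The other largest rises were MMP2-AS1 (3.20), H19 (2.78), PPP1R27 (2.62), AL451062.1 (2.35), SPRY1 (1.95), MTRNR2L12 (1.86), VTN (1.83) and YPEL3 (1.75). H19 is an imprinted noncoding RNA, SPRY1 an inhibitor of receptor tyrosine kinase signalling and VTN vitronectin, an adhesion protein that photoreceptors make. VTN had 69.9, 109 and 100.5 CPM in the transplanted libraries, against 37.4, 30.8 and 8.15 CPM in the cultured ones (1.83 ± 0.36, adjusted p = 0.0137, edgeR). It was also higher in members than in matched TMEM176-zero rods (1.21, adjusted p = 1.29e-11, edgeR, 5 of 6 libraries). MMP2-AS1 is an antisense gene, and reads of the 2 strands can be confused where counting does not use the strand, which was not stated. H19 had 135, 37.7 and 37.9 CPM in the transplanted libraries, against 24.5, 6.02 and 0 CPM in the cultured ones.

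Stress and early response genes rose in part. Of 22 immediate early genes, 6 rose (IER3 (1.25), DUSP2 (1.67), ATF3 (0.96), DUSP1 (1.004), JUNB (1.14) and JUN (1.10)) and FOSL1 fell (-1.0001), at a median of 0.78. Of 19 genes of endoplasmic reticulum stress, 5 rose (TRIB3 (1.303), DDIT3 (1.28), HERPUD1 (1.02), DNAJB9 (0.87) and XBP1 (0.76)) and 0 fell. DDIT3, the stress transcription factor CHOP, had 389, 391 and 408 CPM in the transplanted libraries, against 218, 173 and 159 CPM in the cultured ones, with no overlap. HLA-B (1.41) and HLA-C (1.08), heavy chains of class I antigen presentation, rose among 13 genes of that list, IFITM1 (1.77) and IFITM2 (1.008) among 13 interferon-induced genes and SERPING1 (0.82) and CFI (0.75) among 9 complement genes. IFITM1 was higher in 2 of 3 Sets, and SERPING1 stood at -0.0019 when members were thinned to 2000 UMIs. The p53 and death list was divided, with BBC3 (1.09) and GADD45B (0.97) higher and the p53 targets CDKN1A (-0.84) and ZMAT3 (-0.77) lower. In the depth-matched members alone GADD45B averaged 31.0 CPM in transplanted and 35.6 CPM in cultured libraries. Of 13 mitochondrially encoded genes 1 passed, MT-ND4L (0.96), while the list's median was 0.82 and all 13 lay above 0. The median share of mitochondrial UMIs was 4.24, 3.52 and 3.33% in transplanted members and 1.59, 2.59 and 1.29% in cultured members, a difference whose part in these results was not tested.

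Photoreceptor genes moved both ways in transplanted members. Summed cone markers were higher in 3 of 3 Sets, without overlap. They came to 825, 1185 and 972 CPM in transplanted libraries 1, 2 and 3, against 592, 588 and 473 CPM in the cultured ones. GNB3 alone held 686, 854 and 700 CPM of the transplanted and 422, 381 and 277 CPM of the cultured sums. The cone sums thus mostly follow that gene. The sum of 8 rod markers was also higher in 3 of 3 Sets, with overlap. It came to 544, 1115 and 1119 CPM in transplanted libraries 1, 2 and 3, against 340, 583 and 556 CPM in the cultured ones. AIPL1, given as a marker of these rods, held most of each sum, at the levels given below. GNGT1, another of the 8, fell, so the sums do not show a rise of rod markers as a group. The part of these sums in the gene changes was not tested. GUCA1B had 77.0, 116 and 179 CPM in the transplanted libraries, against 27.4, 65.2 and 38.7 CPM in the cultured ones (1.56 ± 0.25, adjusted p = 8.86e-05, edgeR), and AIPL1 had 491, 966 and 895 CPM in the transplanted libraries, against 255, 435 and 299.6 CPM in the cultured ones (1.38 ± 0.34, adjusted p = 0.00886, edgeR), both without overlap. GNGT1, the gamma subunit of rod transducin, had 5.17, 18.2 and 22.2 CPM in the transplanted libraries, against 31.2, 41.3 and 65.2 CPM in the cultured ones (-1.60 ± 0.26, adjusted p = 1.63e-04, edgeR), also without overlap but in the other direction. RGS9 (-1.30) and PDE6G (-1.10) fell too, so that 2 of 15 rod phototransduction genes rose and 3 fell. In the cone list GNB3 (1.23) rose and GNGT2 (-1.60), the cone gamma subunit, fell. SAMD7, a photoreceptor silencing factor, fell in 3 of 3 Sets, with 0.175, 3.45 and 11.7 CPM in the transplanted libraries, against 2.61, 25.3 and 67.3 CPM in the cultured ones (-2.58 ± 0.32, adjusted p = 4.57e-07, edgeR). The groups overlapped between Sets. It was the 1 gene of 16 transcription factors and silencers that passed. CRX did not pass, with 99.7, 218 and 288 CPM in the transplanted libraries, against 104, 210.5 and 471 CPM in the cultured ones (-0.07 ± 0.27, adjusted p = 0.937, edgeR). PCARE (1.49), an outer segment actin regulator, and CACNA1F (0.87) rose, each the 1 gene of its list of 20 and 22. DHRS3, RLBP1 and STRA6 rose in the retinoid list, but RLBP1, a Müller glia gene, stood at -0.21 without rods over 20000 UMIs.

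Cell cycle genes fell, as did some genes of young neurons and antioxidant defence. Of 15 cell cycle genes 10 fell and 0 rose, at a median of -1.35, with TOP2A, a topoisomerase of dividing cells, at 31.2, 8.13 and 16.7 CPM in the transplanted libraries, against 172, 45.5 and 226 CPM in the cultured ones (-2.75 ± 0.25, adjusted p = 4.73e-10, edgeR). The groups did not overlap. The 8 dividing progenitor markers summed to 123 to 303 CPM in transplanted members and 308 to 1034 CPM in cultured members, and none of them was at 0 in any library. By doublet score, 10.6, 0.680 and 6.93% of transplanted members and 24.3, 15.5 and 0% of cultured members were likely doublets, and 731 genes passed without them. The part of doublets in the cell cycle result was not tested. Müller glia markers summed to 1748 to 4059 CPM in transplanted and 1390.1 to 4241 CPM in cultured members, so those groups overlapped. NQO1, an antioxidant enzyme, had 11.8, 7.64 and 8.84 CPM in the transplanted libraries, against 42.8, 117 and 28.5 CPM in the cultured ones (-2.37 ± 0.41, adjusted p = 0.0107, edgeR), and SLC7A11 (-2.07) and HMOX1 (-1.51) fell with it, the 3 of 16 genes of the NRF2 list that passed. Of 15 young neuron genes 3 fell (DPYSL3 (-1.56), DCX (-1.20) and MAP2 (-1.33)). Ganglion cell markers summed to 57.6 to 85.8 CPM in transplanted and 97.7 to 155 CPM in cultured members, and horizontal cell markers to 118 to 164 CPM in transplanted and 234 to 337 CPM in cultured members. Both were lower in 3 of 3 Sets without overlap, and their part in these falls was not tested. NPB, a neuropeptide precursor, fell by 2.83 on the log2 scale to 4.68 ± 0.740 CPM in transplanted members, against 38.1 ± 15.3 CPM in cultured members (SD, n = 3 each). The remaining large falls were MKI67 (-2.52), NUSAP1 (-2.17), STAT4 (-2.01), CENPF (-1.96), TMEM132D (-1.95), PCLAF (-1.86) and BIRC5 (-1.85). In each direction 1 gene passed in the glycolysis list of 22, NDRG1 (0.85) and HK2 (-1.25), and ATP6V1A (-0.82) was the 1 of 16 in the lysosome list.

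**Figure D5:**
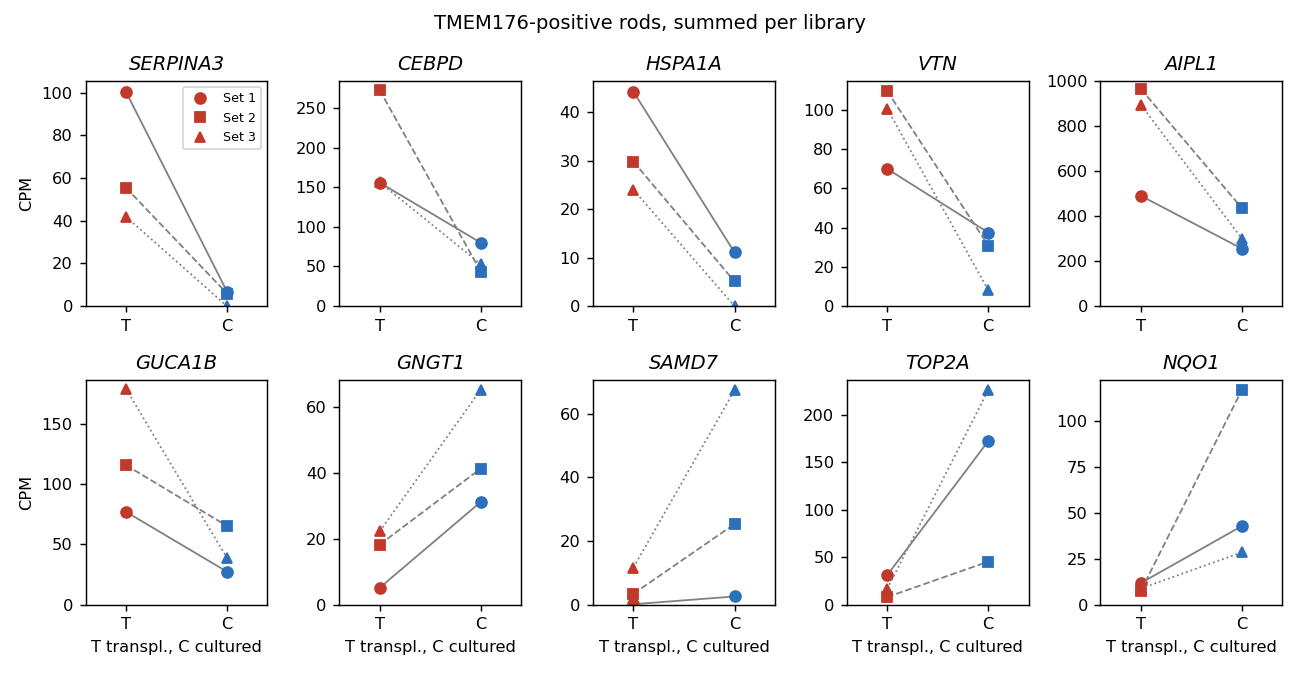
Level (y axis, CPM, members summed per library) of 10 genes in transplanted (T) and cultured (C) TMEM176-positive rods, with a line for each Set. SERPINA3, CEBPD, HSPA1A, VTN, AIPL1 and GUCA1B stand higher and GNGT1, SAMD7, TOP2A and NQO1 lower in the transplanted library of every Set. Axes differ between panels.

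TMEM176-zero rods gave the values that stand beside these. Of 12935 genes tested in them, 25 (0.193%) were higher and 62 (0.479%) lower in transplanted libraries, from sums of 223, 15 and 201 transplanted and 1494, 1133 and 300 cultured cells. The log2 change of CEBPD was 1.90 ± 0.31, adjusted p = 1.48e-04 in members and 1.55 ± 0.34, adjusted p = 0.00319 in TMEM176-zero rods (edgeR). That of HSPA1A was 2.48 in members and 1.80 in TMEM176-zero rods, that of TOP2A -2.75 in members and -2.55 in TMEM176-zero rods, and that of GNGT1 -1.60 in members and -1.93 in TMEM176-zero rods. GUCA1B changed by 1.56 in members and by 0.41, which did not pass, in TMEM176-zero rods. The difference between the responses was tested in the matched rods as an interaction of TMEM176 status and treatment. For GUCA1B it was 0.56 ± 0.27, adjusted p = 0.909 and for AIPL1 0.25 ± 0.16, adjusted p = 0.9997 (edgeR), so a different response was not shown for either. Among the genes named for the members' own response, it passed for H19 and GADD45B. For GADD45B the difference had the same direction in 3 of 3 Sets, and for H19 it did not. In transplanted library 2 GADD45B had 0 CPM in members and 29.1 CPM in TMEM176-zero rods, where 1 UMI was worth 14.5 CPM. Of 12748 genes, 2 (0.0157%) had a higher and 11 (0.0863%) a lower log2 response in members, together 0.102%, with 687 at an unadjusted p under 0.05. GADD45B, a stress gene of the p53 and death list, averaged 31.0 CPM in transplanted members and 35.6 CPM in cultured members, against 109.5 CPM in transplanted and 39.1 CPM in cultured TMEM176-zero rods (-1.18 ± 0.25, adjusted p = 0.00890, edgeR). The count was 1 without transplanted library 2, 0 without cultured library 1 (317 at an unadjusted p under 0.05) and 53 without transplanted library 1.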

How the data were processed

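Droplet libraries of polyadenylated RNA (10x 3′ kit, per the labels' protocols) were deposited by the authors as filtered matrices of raw UMI counts per gene and cell, made with Cell Ranger 6.0.2 (Set 1) and 7.1.0 (Sets 2 and 3), per the file headers. The genome build was GRCh38, per the submitters' processing notes, with 36601 genes; whether intronic reads were counted, and any step against dog reads, is not given in the sources used here. The members and gene lists were chosen with earlier results of these data known.

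Rods were selected by the stated thresholds, and counts were summed per library. Sums were fitted with edgeR 4.0.16 (R 4.3.3; filterByExpr, TMM, robust quasi-likelihood, Benjamini-Hochberg over all genes, 0.05), with DESeq2 1.42.0 as an alternative. Members were matched 1 to 1 to TMEM176-zero rods of the library in log10 UMIs (0.05). The gene fits were tested on simulated data. Shares were compared by exact permutation (SciPy 1.17.1). Doublets were kept; an alternative removed the highest Scrublet scores (Scanpy 1.11.5) at 0.8% per 1000 cells. The stricter cell filter asked for 2000 UMIs, 1000 genes and at most 10% mitochondrial UMIs. The host filter removed cells under the 1st percentile of cultured cells of the Set in clone-named transcripts. Other alternatives were other normalization, no filter on low counts, 1 or 4 TMEM176 UMIs, and leaving out libraries.

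Pairing by Set comes from the series' design, in which both fragments of a Set share an organoid batch. Deviations from the group means correlated at 0.898, 0.549 and 0.75 within Sets 1, 2 and 3. Across Sets, transplanted library 2 with cultured library 3 gave 0.547 and transplanted library 3 with cultured library 2 gave 0.577, so the value within Set 2 does not stand out; the other pairs lay between -0.871 and -0.636. Genes named are those past the threshold with at least 30 CPM in the higher group and 1 sign in every pair, the 12 largest in each direction, plus up to 4 per list with the smallest p, the genes of the rule, CRX and AIPL1. A few genes of this rule are not reported here. Further called list members, and the few others named, SAG among them, were chosen after their values were seen. Intervals cover counting error only.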

Additional observations from a re-analysis of the deposited data

Results flagged for a closer look

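The response to transplantation differed between matched TMEM176-positive and TMEM176-zero rods for 13 genes, by edgeR's test of the difference itself. A log2 difference of responses below 0 means a smaller rise or a larger fall in members. It was below 0 for H19 (-1.83), GRIA4 (-1.54), ERBB4 (-2.67), TMEM232 (-1.17), GADD45B (-1.18), CSMD3 (-2.71), SH2D3C (-2.39), LUZP1 (-1.46), NOP56 (-0.84), PTGDS (-2.54) and TRPM3 (-1.47). It was above 0 for DKK1 (1.49), a Wnt inhibitor, and RBP4 (1.57), a retinol carrier. At 30 CPM or more in the higher group, 1 gene above 0 and 5 below 0 had the same direction in 3 of 3 Sets. They were DKK1, and CSMD3, SH2D3C, LUZP1, GADD45B and NOP56. The direction in Set 2 rests on few UMIs of transplanted library 2. There DKK1 had 0 CPM in members and in TMEM176-zero rods, so its direction came from the cultured library. SH2D3C and GADD45B each had 0 CPM in members and 29.1 CPM in TMEM176-zero rods there, where 1 UMI was worth 14.5 CPM. RBP4 was above 0 in 2 of 3 Sets, and H19 and TRPM3 did not keep one direction in every Set. H19 averaged 34.4 CPM in transplanted and 8.77 CPM in cultured members, against 115 CPM in transplanted and 11.3 CPM in cultured TMEM176-zero rods. DKK1 averaged 28.0 CPM in transplanted and 28.1 CPM in cultured members, against 25.6 CPM in transplanted and 67.7 CPM in cultured TMEM176-zero rods. PTGDS, a prostaglandin synthase, averaged 3.92 CPM in transplanted and 23.8 CPM in cultured members, against 10.6 CPM in transplanted and 12.6 CPM in cultured TMEM176-zero rods. CSMD3 averaged 2.46 CPM in transplanted and 19.1 CPM in cultured members, against 15.3 CPM in transplanted and 30.2 CPM in cultured TMEM176-zero rods, and it had 0 UMIs in the matched rods of transplanted libraries 1 and 2. DKK1 turned to -0.19 with the stricter cell filter, and GRIA4 to 0.29 without likely doublets and to 0.70 with the host filter. With the Set in place of the library as block, 0 genes passed (350 at an unadjusted p under 0.05, edgeR). The cause of these differences was not tested.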

How the results depend on the processing

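The difference in the share of rods kept its direction in every alternative run, between 33.03 and 48.5 points, and without each Set between 38.3 and 53.1 points. Without the replicate block, that is without the pairing by Set, it was 47.4 points with an exact permutation p of 0.10. For members against TMEM176-zero rods, 1327 genes passed; the count was 455 without depth matching, 42 in rods thinned to 2000 UMIs without matching, 627 with the replicate block by Set plus treatment, 0 with no replicate block (114 at an unadjusted p under 0.05), 423 by DESeq2 and 555 to 1359 without 1 library. For transplanted against cultured members, 1013 passed; the count was 657 with members chosen after thinning, 507 with equal cells, 454 without rods over 20000 UMIs, 140 with members thinned, 477 by DESeq2, 0 with no replicate block (506 at an unadjusted p under 0.05) and 216 to 660 without 1 Set. For the difference of responses, 13 passed; the count was 8 with the stricter cell filter, 6 without likely doublets, 3 with the host filter, 3 without rods over 20000 UMIs, 4 without transplanted library 2 and cultured library 3, 0 with the replicate block by Set in place of the library (350 at an unadjusted p under 0.05) and 0 to 53 without 1 library. For TMEM176-zero rods, 87 passed, 0 with no replicate block (76 at an unadjusted p under 0.05) and 3 to 113 without 1 Set.

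Without depth matching, 36 of 86 named genes of the matched comparison changed sign, none of them past the threshold, to log2 differences of GLIS3 0.26, MIR99AHG 0.015, CCND1 0.11, SPP1 0.67, TRPM3 0.13, CRABP1 0.69, SPATA13 0.092, VIM 0.90, NES 0.21, CNGB1 -0.26, GNAT1 -0.19, GAP43 0.36, NR4A1 0.45, HLA-E 0.22, PSMB8 0.19, PSMB9 0.24, TAPBP 0.074, IFITM3 0.68, IFITM2 0.31, ISG15 0.13, CLU 0.39, CD59 0.36, CFI 0.36, SERPING1 0.57, SDF2L1 0.25, HSPB1 0.21, ENO1 0.18, SLC7A11 0.16, NQO1 0.23, GCLM -0.038, RPS27L 0.11, CENPF 0.18, TOP2A 0.48, NUSAP1 0.079, CTSB 0.43 and NPC2 0.32. In thinned rods without matching, 15 did, to GLIS3 0.15, SPP1 0.057, TRPM3 0.17, CRABP1 0.062, VIM 0.27, CNGB1 -0.077, GNAT1 -0.17, GAP43 0.091, CLU 0.011, CD59 0.016, SERPING1 0.31, SDF2L1 0.10, SLC7A11 0.12, NQO1 0.17 and NPC2 0.0803. Between transplanted and cultured members RLBP1 turned to -0.21 without rods over 20000 UMIs and SERPING1 to -0.0019 in thinned members. In the difference of responses DKK1 turned to -0.19 with the stricter cell filter, and GRIA4 to 0.29 without likely doublets and 0.70 with the host filter. The cause was not tested. Settings on rods over 20000 UMIs, on thinned members and without transplanted library 2 and cultured library 3 were chosen after seeing the data. Depth limits the values of those libraries most, with 14 and 13 matched pairs.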
